A study of Mus musculus with 8 samples.

Results

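The 10 genes described here encode transcription factors that build and maintain the fat cell: the peroxisome proliferator-activated receptors Pparg, Ppara and Ppard, the CCAAT/enhancer-binding proteins Cebpa, Cebpb and Cebpd, the retinoid X receptors Rxra and Rxrg, the liver X receptor Nr1h3 and the Krüppel-like factor Klf15. They were taken by symbol from the 41388 genes listed for each library, all 10 were found, and all 10 passed the filter on low counts that left 16705 genes for testing. RNA was sequenced from the brown adipose tissue of 8 C57BL/6J mice, housed at room temperature and fed regular chow. ANKO names the 4 mice in which floxed Nampt alleles were combined with a Cre transgene under the adiponectin promoter, whose activity marks brown and white adipocytes alike. The other 4 mice, called WT, carried the floxed alleles on both chromosomes and were labelled wild type. The sources used here give neither age nor sex. The comparison asks what brown fat expresses once its adipocytes have lost Nampt, which catalyses the rate-limiting step of NAD+ salvage from nicotinamide.

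PPARγ is the receptor without which fat cells do not form, and it works as a heterodimer with a retinoid X receptor at repeats of the hexamer AGGTCA. C/EBPβ and C/EBPδ act early in differentiation and raise PPARγ and C/EBPα, which then sustain each other's expression and the lipid storage programme. PPARα drives fatty acid oxidation and is abundant in brown fat, LXRα (Nr1h3) senses oxysterols, and KLF15 is a glucocorticoid-induced factor known for control of amino acid breakdown in liver and muscle.

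Nampt itself stood at 67.4, 69.5, 77.6 and 74.6 CPM in ANKO1 to ANKO4, against 484, 484, 571 and 495 CPM in WT1 to WT4, so the ANKO mean was 14.2% of WT. CPM are gene counts scaled to a common library total of 1e+06, here with TMM factors between libraries. Library totals ran from 5738067 to 26426476 counts in ANKO and from 21771276 to 49697156 in WT, and a gene with 3 counts had 0.0604 CPM at the greatest depth and 0.523 CPM at the lowest. Ucp1, the thermogenic uncoupling protein that defines brown fat, was read in every library, with 317 to 1673 CPM among ANKO mice and 3369 to 8829 CPM among WT mice. Several marker lists moved with genotype, in a comparison that called 30.6% of all genes higher in ANKO and 27.6% lower. The summed level of 18 adipocyte markers was 16362 to 25366 CPM in ANKO and 39882 to 46981 CPM in WT, with 15 called lower, and 11 of 12 brown adipocyte markers were lower. Macrophage markers summed to 1643 to 2926 CPM in ANKO and 150 to 197 CPM in WT (13 of 14 higher), and fibroblast and progenitor markers to 4498 to 8179 CPM in ANKO and 1073 to 1453 CPM in WT (11 of 12 higher). Lymphocyte markers summed to 36.1 to 61.4 CPM in ANKO and 6.37 to 7.97 CPM in WT (11 of 12 higher), and endothelial markers to 1161 to 1334 CPM in ANKO and 1450 to 1671 CPM in WT (1 of 10 higher, 4 lower). Skeletal muscle markers summed to 10135 to 15456 CPM in ANKO, with 11 of 14 higher. In WT they set the libraries apart, at 1083 CPM in WT1 and 2979 CPM in WT2 against 161 CPM in WT3 and 68.2 CPM in WT4. No marker was at 0 in all libraries of a genotype. The part of these other tissues and cell types in the differences below was not tested, and in bulk tissue fewer cells of a type and less RNA per cell cannot be told apart.

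Most of these factors were lower in ANKO brown fat, among them Pparg and Ppara. Of the 10 genes, 8 differed between genotypes (edgeR quasi-likelihood test, adjusted p under 0.05 over all genes), a test that called 58.2% of all genes tested. Pparg, Ppara, Cebpb, Rxrg, Nr1h3 and Klf15 fell, which is 6 of 10 where 27.6% of all genes fell. Cebpd and Rxra rose, which is 2 of 10 where 30.6% of all genes rose. Ppard and Cebpa did not pass the test. In the same 6 genes that fell, every ANKO library lay below every WT library, and groups that do not overlap were seen for 55.0% of all genes. The median log2 fold change was -0.83 over the 10 genes and -0.01 over all genes tested. Without WT3 and WT4, the WT libraries with the least muscle RNA, 9 of the 10 genes were called, 7 lower and 2 higher. Without WT1 and WT2, a choice made after the data were seen, 7 were called, 6 lower and 1 higher.

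**Figure D1:**
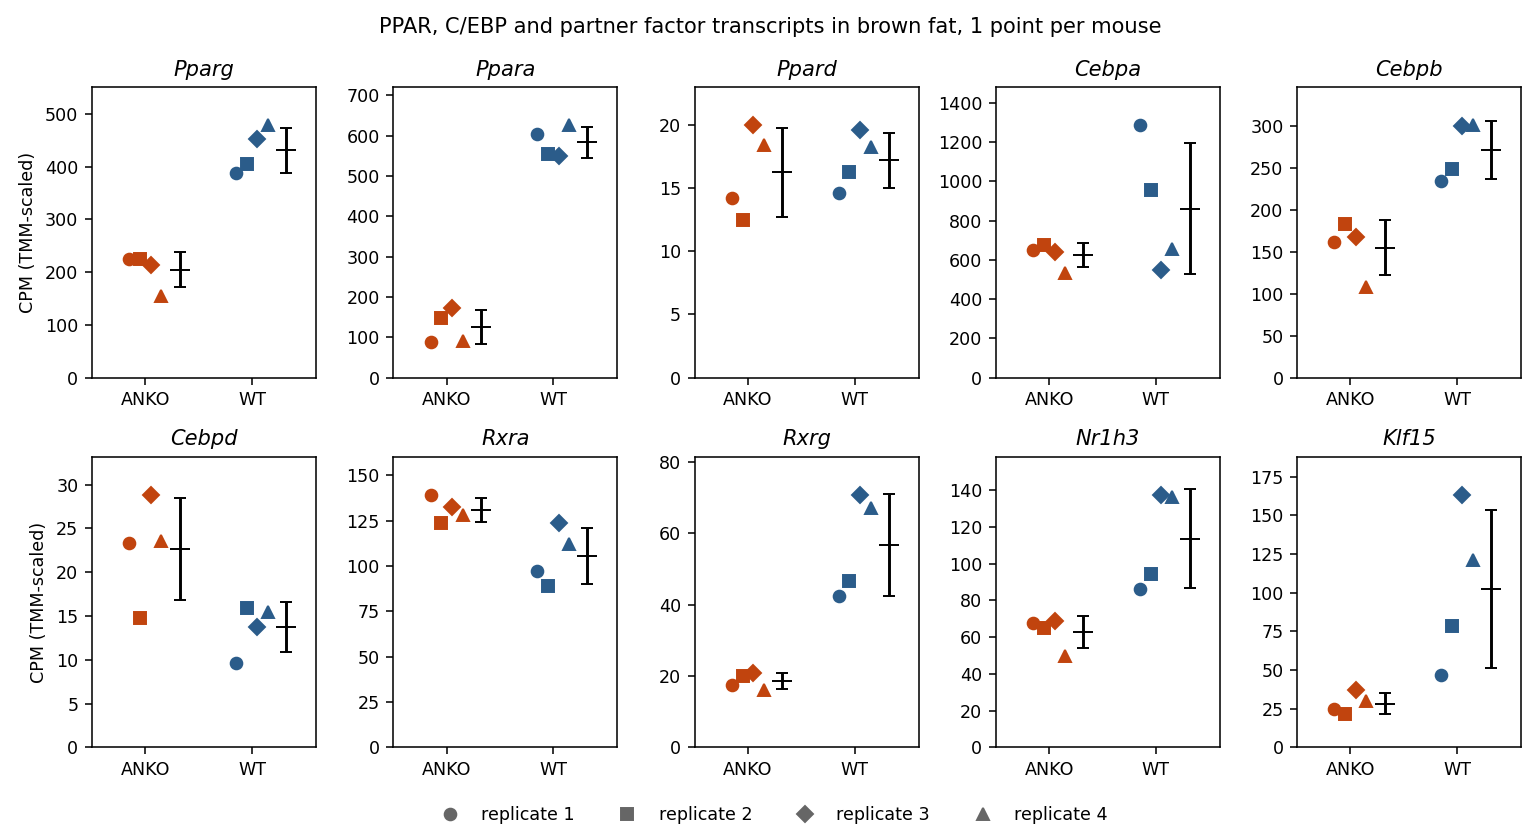
TMM-scaled CPM of the 10 factors in each mouse (symbols by replicate number, ANKO left, WT right, each panel with its own linear axis from 0), with the mean and SD of each genotype. The 4 ANKO points of Pparg (155 to 226 CPM) and Ppara (87.6 to 174 CPM) lie below all WT points, while the ANKO and WT points of Ppard and Cebpa overlap.

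Pparg (ENSMUSG00000000440, chromosome 6, 115361221 to 115490401, plus strand, GRCm38) encodes the receptor at the head of the adipocyte programme. It stood at 225, 226, 214 and 155 CPM in ANKO1 to ANKO4, against 388, 404, 452 and 478 CPM in WT1 to WT4. All ANKO libraries were lower than all WT libraries, and ANKO4, which also had the lowest adipocyte and Ucp1 levels, was the lowest of the 8. The mean was 205 ± 33.9 CPM in ANKO and 430 ± 41.9 CPM in WT (SD, n = 4 each), a 2.10-fold decrease (log2 fold change -1.07 ± 0.15 with its standard error, by edgeR, adjusted p = 0.000164). With the muscle markers as a covariate the log2 fold change was -0.79 ± 0.24, still called (edgeR adjusted p = 0.0399). Mouse Pparg has several start sites, and the adipocyte-enriched form PPARγ2 uses a downstream promoter that C/EBP factors are known to bind. The deposited counts are per gene and do not separate the forms. The 250 bases before the most downstream RefSeq start of Pparg (chr6:115421816-115422065, plus strand, GRCm38.p6) are shown because they hold 2 copies of the C/EBP-type letters TTGCNNAA, 215 to 208 and 16 to 9 bases before the start. Capitals mark those letters and the CCAAT letters, on either strand.
Pparg, downstream start: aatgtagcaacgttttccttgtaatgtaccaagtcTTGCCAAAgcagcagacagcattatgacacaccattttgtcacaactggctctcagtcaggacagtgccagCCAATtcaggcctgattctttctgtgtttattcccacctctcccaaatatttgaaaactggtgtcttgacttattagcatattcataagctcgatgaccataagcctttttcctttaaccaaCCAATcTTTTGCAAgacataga
TTGCNNAA was searched on both strands and occurs in 9.56% of the 32851 RefSeq promoter windows of the same length. Among 14 start sites of 9 of the factors in that table, 2 hold it, this one and the downstream start of Rxrg. A match describes letters and says nothing of binding in these mice.

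Ppara (ENSMUSG00000022383, chromosome 15, 85734983 to 85802819, plus strand), the receptor of fatty acid oxidation genes, had the lowest log2 fold change of the 10 with all libraries, though not without WT1 and WT2, where Klf15 was lower (-2.36 against -2.25). It stood at 87.6, 149, 174 and 91.4 CPM in ANKO1 to ANKO4, against 604, 553, 549 and 626 CPM in WT1 to WT4. The ANKO libraries varied 1.98-fold among themselves and the WT libraries 1.14-fold, and the highest ANKO value was still far below the lowest WT value. Means were 125 ± 42.8 CPM in ANKO and 583 ± 37.9 CPM in WT, which is 4.65-fold lower and 21.5% of WT (log2 fold change -2.22 ± 0.23, edgeR adjusted p = 2.37e-05). Its log2 fold change hardly moved with the muscle markers as a covariate (-2.18 ± 0.38) or without either pair of WT libraries (-2.22 without WT3 and WT4, -2.25 without WT1 and WT2).

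Ppard (ENSMUSG00000002250, chromosome 17, 28232754 to 28301469, plus strand), a broadly expressed receptor of the same family, did not pass the test. It stood at 14.2, 12.4, 19.96 and 18.4 CPM in ANKO1 to ANKO4, against 14.6, 16.3, 19.6 and 18.2 CPM in WT1 to WT4, and the groups overlapped. Means were 16.2 ± 3.51 CPM in ANKO and 17.2 ± 2.18 CPM in WT (log2 fold change -0.09 ± 0.16, edgeR adjusted p = 0.669).

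Because the 3 receptors differed by unequal amounts, the make-up of the PPAR family differed too. Levels of different genes were compared per length, as TMM-scaled RPKM (CPM per kilobase of gene length). The summed PPAR level was 139 ± 23.9 RPKM in ANKO and 373 ± 25.8 RPKM in WT. Pparg made up 81.4%, 73.3%, 68.5% and 73.7% of that sum in ANKO1 to ANKO4, against 54.9%, 58.0%, 60.7% and 59.1% in WT1 to WT4. Ppara made up 16.4%, 25.0%, 28.7% and 22.5% in ANKO1 to ANKO4, against 44.2%, 41.0%, 38.2% and 39.96% in WT1 to WT4. So per length Pparg was above Ppara in every library, and its share was higher in each ANKO library than in any WT library. In WT this order rests on the gene lengths. Without division by length, Ppara (549 to 626 CPM) was above Pparg (388 to 478 CPM) in every WT library. Ppard averaged 2.60% in ANKO and 0.994% in WT, also without overlap. For each of these 3 shares an exact two-sided permutation test over the 8 libraries gave p = 0.0286, the smallest p that 4 against 4 allow, and p = 0.0571 after adjustment for the 12 shares tested across 4 families.

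**Figure D2:**
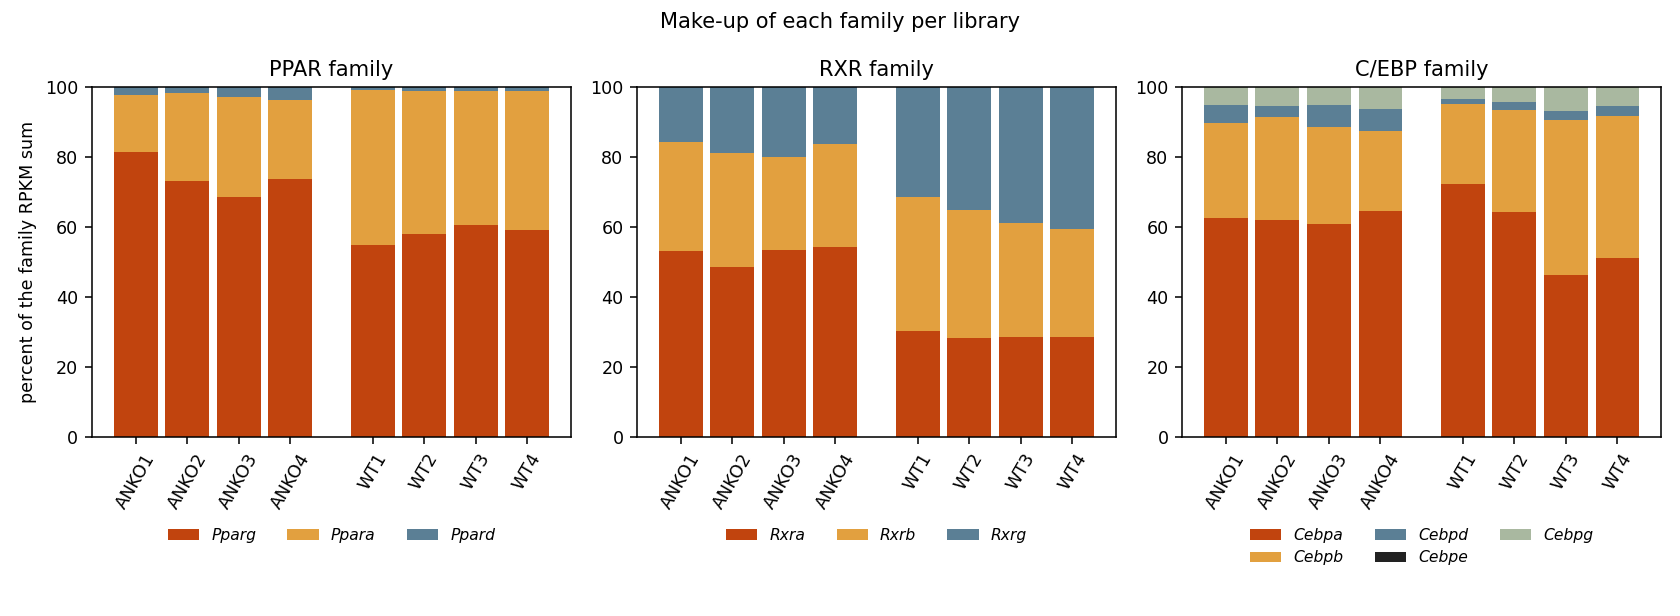
Percent of each family's summed RPKM held by each gene, one stacked bar per library (ANKO left, WT right), for the PPAR, RXR and C/EBP families. Pparg averages 74.2% of the PPAR sum in ANKO and 58.2% in WT, and Rxra averages 52.3% of the RXR sum in ANKO and 28.9% in WT.

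The retinoid X receptors, the shared partners of PPARs and LXRs, went in opposite directions. Rxrg (ENSMUSG00000015843, chromosome 1, 167598384 to 167639623, plus strand) stood at 17.3, 20.1, 20.8 and 16.0 CPM in ANKO1 to ANKO4, against 42.5, 46.5, 70.8 and 67.0 CPM in WT1 to WT4. The ANKO values were close together and all below WT, and WT3 and WT4 were higher than WT1 and WT2. Means were 18.6 ± 2.25 CPM in ANKO and 56.7 ± 14.2 CPM in WT, a 3.06-fold decrease (log2 fold change -1.61 ± 0.18, edgeR adjusted p = 4.09e-05). With the muscle markers as a covariate the log2 fold change was -0.97 ± 0.21 and the gene was still called. The downstream RefSeq start of Rxrg (chr1:167618015-167618264, plus strand, GRCm38.p6) is shown because its 250 bases hold both 1 copy of AGGTCA, 88 to 83 bases before the start, and 1 C/EBP-type match on the other strand, 212 to 205 bases before it, in capitals.
Rxrg, downstream start: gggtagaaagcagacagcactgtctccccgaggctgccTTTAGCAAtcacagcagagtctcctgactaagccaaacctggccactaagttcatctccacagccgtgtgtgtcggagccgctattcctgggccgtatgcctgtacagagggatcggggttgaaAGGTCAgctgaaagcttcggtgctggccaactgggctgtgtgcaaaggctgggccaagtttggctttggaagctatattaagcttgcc

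Rxra (ENSMUSG00000015846, chromosome 2, 27676440 to 27762957, plus strand), the widely expressed member, stood at 139, 124, 133 and 128 CPM in ANKO1 to ANKO4, against 97.5, 88.9, 124 and 112 CPM in WT1 to WT4. ANKO libraries lay within a narrow band, and WT3 overlapped it. Means were 131 ± 6.69 CPM in ANKO and 106 ± 15.4 CPM in WT, a 1.24-fold increase (log2 fold change 0.31 ± 0.11, edgeR adjusted p = 0.0361). This call was weak: it was lost when any 1 library other than WT3 was left out, over which the log2 fold change ran from 0.23 to 0.33, and without WT1 and WT2 (0.13), while it was kept at 0.48 without WT3 and WT4 and at 0.68 with the muscle covariate. The 250 bases before its downstream RefSeq start (chr2:27709042-27709291, plus strand, GRCm38.p6) are shown because they hold AGGTCA in 2 copies, in opposite orientations, 87 to 82 and 48 to 43 bases before the start, in capitals.
Rxra, downstream start: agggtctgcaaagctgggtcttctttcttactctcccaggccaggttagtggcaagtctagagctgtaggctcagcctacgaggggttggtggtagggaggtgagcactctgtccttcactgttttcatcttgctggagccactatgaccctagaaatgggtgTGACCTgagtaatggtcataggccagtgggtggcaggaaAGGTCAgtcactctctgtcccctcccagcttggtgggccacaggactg
AGGTCA was searched on both strands and occurs in 14.0% of all promoter windows, and in 4 of the 14 member windows (Pparg at its other 2 start sites, Rxrg and Rxra). Neither AGGTCANAGGTCA nor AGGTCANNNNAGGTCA, the repeats 1 and 4 bases apart that PPAR and LXR heterodimers are known to prefer, occurs in any of the 14 windows, and they occur in 0.0335% and 0.0152% of all windows.

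Per length, Rxra was the highest of the 3 RXR genes in every ANKO library and the lowest in every WT library. In CPM, without division by length, Rxra was the highest in every library of both genotypes. Rxra made up 53.1%, 48.6%, 53.4% and 54.3% of the summed RXR level in ANKO1 to ANKO4, against 30.4%, 28.3%, 28.6% and 28.5% in WT1 to WT4. Rxrg averaged 17.6% in ANKO and 36.5% in WT, and these groups did not overlap either. The third receptor, Rxrb, fell to 51.0 ± 5.72 CPM in ANKO, against 84.6 ± 7.32 CPM in WT (log2 fold change -0.73 ± 0.10, edgeR adjusted p = 0.000216), and its share overlapped between genotypes (30.0% in ANKO, 34.5% in WT; exact permutation p = 0.143, adjusted p = 0.214), a difference of -4.50 points that was -7.29 without WT3 and WT4. For the shares of Rxra and of Rxrg the exact permutation p was 0.0286, and 0.0571 after adjustment over the 12 shares. The summed RXR level was 45.8 ± 2.01 RPKM in ANKO and 66.9 ± 10.5 RPKM in WT.

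Nr1h3 (ENSMUSG00000002108, chromosome 2, 91184061 to 91202834, minus strand) encodes LXRα, which turns on cholesterol efflux and lipid synthesis genes. It stood at 67.8, 64.9, 68.9 and 49.8 CPM in ANKO1 to ANKO4, against 86.2, 94.5, 138 and 137 CPM in WT1 to WT4. No ANKO library reached the lowest WT library, and WT3 and WT4 were well above WT1 and WT2. Means were 62.8 ± 8.83 CPM in ANKO and 114 ± 27.2 CPM in WT, a 1.81-fold decrease (log2 fold change -0.85 ± 0.17, edgeR adjusted p = 0.00192). The decrease was smaller without WT3 and WT4 (-0.53 ± 0.14) and was no longer called with the muscle covariate (-0.21 ± 0.22). A non-coding gene, Gm13783, lies within Nr1h3 on the same strand. Its raw counts, not scaled for library depth, were 0 to 5 in ANKO and 4 to 25 in WT. Nr1h2, which encodes the widely expressed LXRβ, fell less, with means of 48.7 ± 6.59 CPM in ANKO and 71.2 ± 4.32 CPM in WT (log2 fold change -0.54 ± 0.11, edgeR adjusted p = 0.00163), and Nr1h3 held 63.3% of the summed LXR level in ANKO and 67.6% in WT (exact permutation p = 0.114, adjusted p = 0.196), a difference of -4.27 points that was -0.80 without WT3 and WT4.

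Cebpa (ENSMUSG00000034957, chromosome 7, 35119293 to 35121926, plus strand), the partner of Pparg in the mature adipocyte, had the highest mean of the 10 per length in both genotypes, and its call depended on which WT libraries were used. It stood at 649, 676, 638 and 534 CPM in ANKO1 to ANKO4, against 1287, 956, 547 and 658 CPM in WT1 to WT4. The ANKO libraries agree within 1.27-fold, whereas the WT libraries span 2.35-fold, with WT1 and WT2 above all ANKO libraries and WT3 and WT4 among them. Means were 624 ± 62.2 CPM in ANKO and 862 ± 332 CPM in WT, and the gene did not pass the test (log2 fold change -0.47 ± 0.25, edgeR adjusted p = 0.129). Against WT1 and WT2 alone the log2 fold change was -0.86 ± 0.19 and was called, against WT3 and WT4 alone it was 0.02 ± 0.17 and was not. It was also called without WT3 (-0.64) and with the muscle covariate (-1.23 ± 0.35). An antisense gene, Gm45091, overlaps Cebpa in GENCODE M21, and Gm44079 overlaps Pparg. Because the sources used here give no strand setting, reads of overlapping genes cannot be told apart.

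Cebpb (ENSMUSG00000056501, chromosome 2, 167688915 to 167690418, plus strand), an early factor of differentiation that also mediates cAMP and inflammatory responses, fell. It stood at 161, 183, 167 and 108 CPM in ANKO1 to ANKO4, against 234, 249, 299 and 300 CPM in WT1 to WT4, with no overlap. Means were 155 ± 32.3 CPM in ANKO and 270 ± 34.4 CPM in WT, a 1.75-fold decrease (log2 fold change -0.80 ± 0.17, edgeR adjusted p = 0.00217). The call was lost with the muscle covariate (-0.46 ± 0.28). Cebpb overlaps Tmem189 on the opposite strand. Raw counts of Tmem189 were 195 to 675 in ANKO and 353 to 710 in WT, below those of Cebpb in every library. They are not scaled for library depth and so do not compare the genotypes.

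Cebpd (ENSMUSG00000071637, chromosome 16, 15887286 to 15888466, plus strand), the other early factor and an acute-phase gene, rose. It stood at 23.4, 14.8, 28.8 and 23.6 CPM in ANKO1 to ANKO4, against 9.65, 15.9, 13.8 and 15.5 CPM in WT1 to WT4. All but 1 ANKO library were above all WT libraries, and ANKO2 lay among them. Means were 22.6 ± 5.84 CPM in ANKO and 13.7 ± 2.86 CPM in WT, a 1.65-fold increase (log2 fold change 0.72 ± 0.21, edgeR adjusted p = 0.0138). The call was lost without ANKO3 (0.58 ± 0.22) and with the muscle covariate (0.80 ± 0.40). Spidr, on the opposite strand beside it, had raw counts of 92 to 354 in ANKO and 296 to 666 in WT, again not scaled for depth.

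Within the C/EBP family Cebpa led in both genotypes, with 62.5% ± 1.53 of the summed level in ANKO and 58.5% ± 11.95 in WT (SD, n = 4 each; exact permutation p = 0.486, adjusted p = 0.543). Cebpb averaged 26.8% in ANKO and 34.3% in WT and overlapped (exact permutation p = 0.257, adjusted p = 0.343). These differences rest on the WT libraries used: for Cebpa the difference, ANKO minus WT, was 4.02 points with all libraries, 8.64 without WT1, -0.03 without WT3, 1.54 without WT4 and -5.79 without WT3 and WT4. For Cebpb it was -7.49 points with all libraries, -11.3 without WT1, -4.16 without WT3 and 0.73 without WT3 and WT4. Cebpd made up 5.03%, 3.03%, 6.14% and 6.36% in ANKO1 to ANKO4, against 1.21%, 2.39%, 2.60% and 2.68% in WT1 to WT4, so its share was above WT in every ANKO library (exact permutation p = 0.0286, adjusted p = 0.0571). Cebpg, a truncated family member that dimerises with the others, fell slightly (log2 fold change -0.33 ± 0.10, edgeR adjusted p = 0.0215), a call lost without WT3 and WT4 (-0.19), without ANKO1 (-0.32), without ANKO3 (-0.33), with upper-quartile scaling (-0.23), with library totals alone as the scaling (-0.14), with counts thinned to the lowest total (-0.28) and with the muscle covariate (-0.03). Cebpe, known from granulocytes, had too few counts to be tested.

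Klf15 (ENSMUSG00000030087, chromosome 6, 90462576 to 90475238, plus strand) fell, against a WT level that varied between mice. It stood at 24.5, 21.8, 36.9 and 29.7 CPM in ANKO1 to ANKO4, against 46.6, 78.4, 163 and 121 CPM in WT1 to WT4. WT libraries span 3.51-fold, and the lowest of them, WT1, was still above the highest ANKO library. Means were 28.2 ± 6.64 CPM in ANKO and 102 ± 50.9 CPM in WT, a 3.64-fold decrease (log2 fold change -1.86 ± 0.37, edgeR adjusted p = 0.00284). Without WT3 and WT4 the log2 fold change was -1.17 ± 0.24, without WT1 and WT2 it was -2.36 ± 0.20, and with the muscle covariate it was -0.79 ± 0.51 and no longer called. The 250 bases before its RefSeq start (chr6:90462326-90462575, plus strand, GRCm38.p6) are shown because they hold 2 copies of the E-box CACGTG, 228 to 223 and 172 to 167 bases before the start. Capitals mark these and a CCAAT match, and the window is 72.0% G and C against a median of 52.4% over all promoter windows.
Klf15: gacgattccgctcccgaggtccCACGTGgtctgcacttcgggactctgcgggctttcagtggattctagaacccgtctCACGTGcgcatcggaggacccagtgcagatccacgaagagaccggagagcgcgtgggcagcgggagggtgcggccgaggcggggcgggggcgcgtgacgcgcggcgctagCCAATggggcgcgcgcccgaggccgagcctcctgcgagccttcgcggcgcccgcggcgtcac
CACGTG occurs in 6.02% of all windows and in no other of the 14 member windows, and CCAAT in 33.8% of all windows and 5 of the 14.

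**Figure D3:**
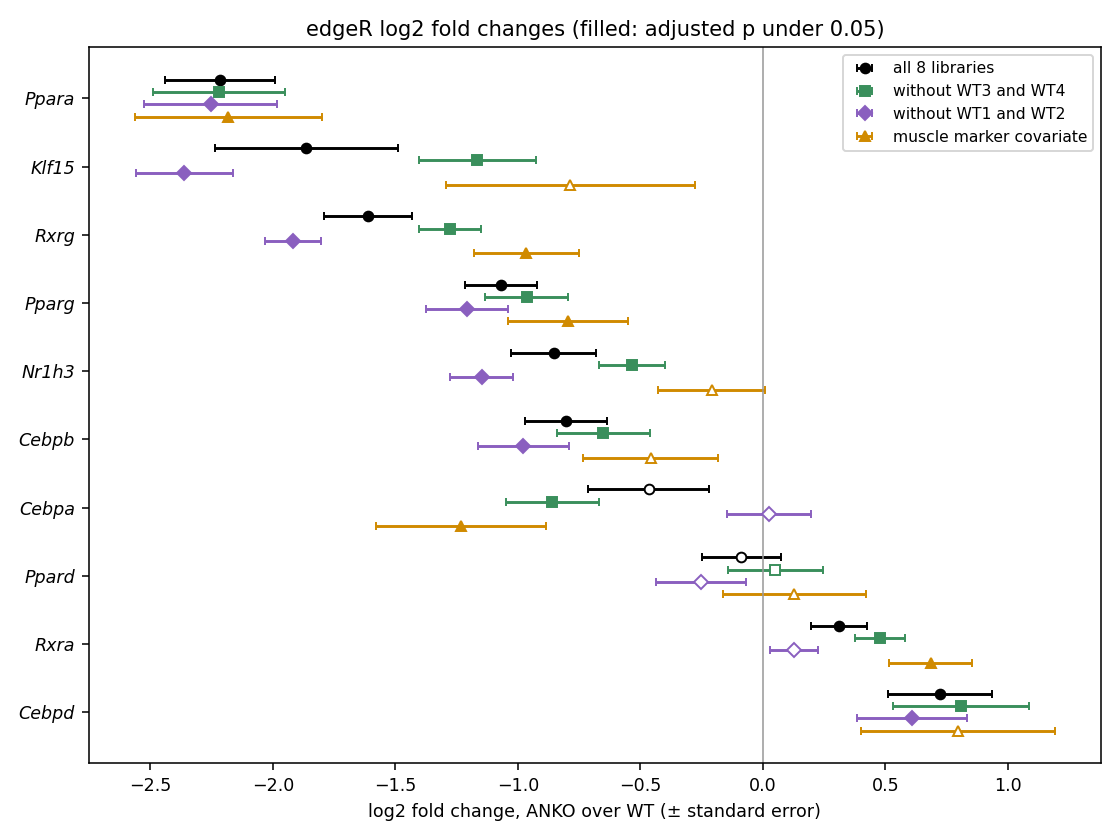
edgeR log2 fold changes of the 10 factors (ANKO over WT, bars are standard errors, filled where the adjusted p is under 0.05) with all 8 libraries, without WT3 and WT4, without WT1 and WT2, and with the muscle markers as a covariate. Ppara stays between -2.25 and -2.18 in all 4, whereas Cebpa runs from -1.23 to 0.02.

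The order of the factors by level differed between genotypes below the first places. Per length, ANKO brown fat held Cebpa at 237 ± 23.6 RPKM, then Pparg at 103 ± 17.1 and Cebpb at 103 ± 21.5 RPKM, which overlapped. After a gap followed Ppara at 32.7 RPKM, Nr1h3 at 25.0, Rxra at 24.0, Cebpd at 19.2, Klf15 at 11.2 and Rxrg at 8.08 RPKM, each of which overlapped its neighbour, and Ppard was lowest at 3.51 RPKM. In WT brown fat Cebpa at 327 ± 126, Pparg at 217 ± 21.1, Cebpb at 180 ± 22.9 and Ppara at 152 ± 9.88 RPKM formed an upper group in which neighbours overlapped. Nr1h3 at 45.2, Klf15 at 40.5, Rxrg at 24.7 and Rxra at 19.3 RPKM followed, again with overlapping neighbours, and Cebpd at 11.6 and Ppard at 3.71 RPKM stood apart below them. Ppara was thus in the upper group in WT and below it in ANKO, and Rxra and Cebpd ranked above Klf15 and Rxrg in ANKO and below them in WT.

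**Figure D4:**
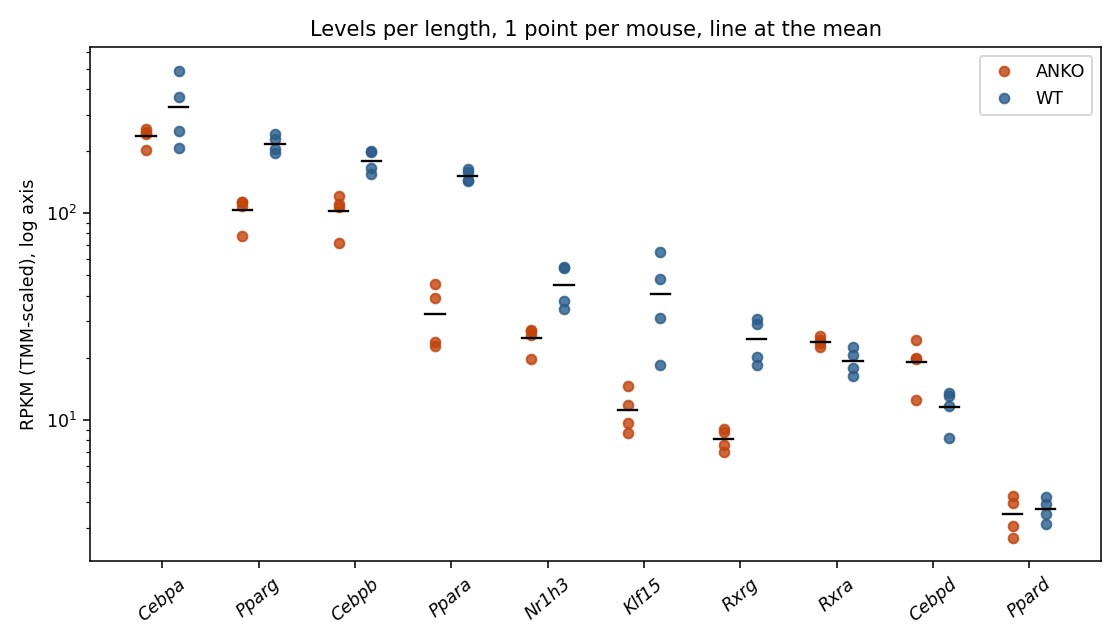
TMM-scaled RPKM of each factor in each mouse on a log axis, ANKO left of WT for every gene, with the mean as a line and genes ordered by their WT mean. Ppara lies at 143 to 163 RPKM in WT and at 22.8 to 45.3 RPKM in ANKO, while Cebpa lies at 203 to 257 RPKM in ANKO and 208 to 489 RPKM in WT.

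Each factor was also set against the adipocyte markers as a whole. Of these markers, 13 are also among the PPARγ targets listed below, so they are not a reference independent of Pparg. The mean log2 CPM of the 18 markers was 9.32 ± 0.23 in ANKO and 10.32 ± 0.08 in WT, a difference of -1.004 (exact two-sided permutation p = 0.0286). Relative to that mean, Ppara differed by -1.27 and Rxrg by -0.58 on the log2 scale, with all ANKO libraries below all WT libraries. Cebpd differed by 1.71, Rxra by 1.32 and Ppard by 0.91, with all ANKO libraries above all WT libraries. For each of these 5 genes the exact permutation p was 0.0286, the smallest possible, and 0.0571 after adjustment over the 10 genes. Because the marker mean itself differed by -1.004, a gene with equal CPM in both genotypes comes out higher in ANKO on this scale. Ppard, whose own log2 fold change was -0.09 and not called, is such a case. The own log2 fold changes of Rxra and Cebpd were 0.31 and 0.72. How many of all genes lack overlap on this scale was not computed. For Pparg the difference was -0.08 (exact permutation p = 0.229), for Nr1h3 0.17 (p = 0.4), for Cebpb 0.18 (p = 0.143), for Cebpa 0.61 (p = 0.114) and for Klf15 -0.73 (p = 0.114), and their groups overlapped. Overlap does not show that these 5 genes followed the markers. Without WT3 and WT4 the difference was -0.17 for Klf15, 0.12 for Cebpa, 0.29 for Cebpb, 0.42 for Nr1h3 and -0.31 for Rxrg. For Klf15 it was also -1.06 without WT1 and -0.47 without WT3.

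The profiles over the 8 libraries placed Cebpb and Nr1h3 closest among the 10, with a root-mean-square difference of 0.14 on the log2 scale after each profile was set to its own WT mean. Pparg was next to both, at 0.20 to Cebpb and 0.23 to Nr1h3, and Rxrg was nearest to Klf15 at 0.37. Cebpd and Ppara were farthest apart, at 2.16. Among 9140 other protein-coding genes with at least 10 CPM, the nearest to Pparg were Trap1 at 0.05 and Phb2 at 0.06. Those nearest to Cebpb were Tmem205 and Mrpl28, both at 0.07, to Nr1h3 Adnp2 and Nfyc, both at 0.08, and to Rxra Atp6ap2 and Itm2b, both at 0.08. Wipi2 at 0.08 and Acsl1 at 0.10 were nearest to Rxrg, Foxo1 at 0.15 and Shb at 0.17 to Klf15, and Igfbp3 at 0.19 and Tubb6 at 0.21 to Cebpd. Ppara had the least close neighbours, Sephs2 at 0.28 and Mapt at 0.29. These are descriptions over 8 libraries that share genotype and tissue make-up.

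Genes known as PPARγ targets were mostly lower, as were the adipocyte markers, with which the list shares 13 of its 24 genes. In ANKO 18 of 24 fell, 1 rose and 5 did not pass the test, where 27.6% of all genes fell and 30.6% rose. The median log2 fold change was -0.85. Cfd, the secreted protease adipsin, fell to 336 ± 78.4 CPM in ANKO, against 3551 ± 713 CPM in WT (log2 fold change -3.40 ± 0.24, edgeR adjusted p = 2.18e-06). Acvr1c, the activin receptor ALK7, fell by 1.85 and the glycerol channel Aqp7 fell by 1.37 on the log2 scale (edgeR adjusted p = 1.97e-06 and 9.11e-06). Fabp5, a fatty acid-binding protein that macrophages also express, was the 1 gene that rose, with 128 ± 33.2 CPM in ANKO and 24.1 ± 3.80 CPM in WT (log2 fold change 2.42 ± 0.20, edgeR adjusted p = 5.50e-06). With the muscle covariate 6 of the list were called lower and 1 higher.

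Targets of PPARα and PPARδ, chiefly genes of fatty acid oxidation, fell in 20 of 29 cases and rose in 4. The shares over all genes were 27.6% and 30.6%, and the median log2 fold change of the list was -1.01. Acadl, the long-chain acyl-CoA dehydrogenase, fell to 483 ± 141 CPM in ANKO, against 1858 ± 122 CPM in WT (log2 fold change -1.94 ± 0.23, edgeR adjusted p = 5.64e-05). The peroxisomal enzyme Ehhadh fell by 1.74 (edgeR adjusted p = 1.23e-05). The carnitine palmitoyltransferases went apart. Cpt1b, the muscle and brown fat form, averaged 15.3 ± 4.21 CPM in ANKO mice, against 53.4 ± 7.74 CPM in WT mice (log2 fold change -1.79 ± 0.20, edgeR adjusted p = 3.78e-05), and Cpt1a, the liver form, averaged 61.4 ± 10.9 CPM in ANKO, against 16.8 ± 1.003 CPM in WT (1.87 ± 0.13, edgeR adjusted p = 2.00e-06). Also among the genes that rose were the lipid droplet coat gene Plin2 (log2 fold change 0.73 ± 0.26) and, at a low level and named after its values were seen, the hormone Fgf21 (2.57 CPM in ANKO, 0.378 CPM in WT). The number that rose was 2 when WT1, WT2 or WT3 was left out alone or WT1 and WT2 together. Plin2 lost its call when WT1, WT2, WT3, ANKO1 or ANKO2 was left out alone, without WT1 and WT2 (0.51), with limma-voom (0.64) and with the muscle covariate (1.31). With the muscle covariate 8 of the list were called lower and 2 higher.

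More LXR targets rose than fell, while Nr1h3 and Nr1h2 were both lower. Of 17 tested, 8 rose, 3 fell and 6 did not pass the test, where 30.6% of all genes rose and 27.6% fell. Their median log2 fold change was 0.36. Abcg1, a sterol exporter prominent in macrophages, rose to 83.5 ± 19.3 CPM in ANKO, against 18.9 ± 2.25 CPM in WT (log2 fold change 2.14 ± 0.17, edgeR adjusted p = 4.60e-06). The small GTPase gene Arl4c (2.15 ± 0.18) and the phospholipid transfer protein gene Pltp (1.88 ± 0.15) rose as well (edgeR adjusted p = 5.78e-06 and 4.71e-06). The other genes that rose, named after their values were seen, were Mylip (0.36 ± 0.10) and the lipid synthesis genes Scd1, Scd2, Fasn and Elovl6. Their log2 fold changes were 1.35 ± 0.37 for Scd1, 2.19 ± 0.71 for Scd2, 0.98 ± 0.37 for Fasn and 1.42 ± 0.36 for Elovl6. ANKO and WT libraries overlapped for Scd1, Scd2 and Fasn. Apoc1, an apolipoprotein, fell to 38.4 ± 11.8 CPM in ANKO, against 243 ± 32.4 CPM in WT (log2 fold change -2.65 ± 0.22, edgeR adjusted p = 7.15e-06). Smpdl3a, a phosphodiesterase, fell by 0.74 and Lpl, the lipoprotein lipase that PPARγ also controls, fell by 0.90 on the log2 scale, the call of Lpl being lost without WT3 and WT4 (-0.41) and its direction with the muscle covariate (0.03 ± 0.39). Macrophage markers, given above, were higher in all ANKO libraries. Without WT3 and WT4 5 of the list rose, and with the muscle covariate 3 rose and 1 fell. Smpdl3a (-0.54 ± 0.19) lost its call with that covariate.

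**Figure D5:**
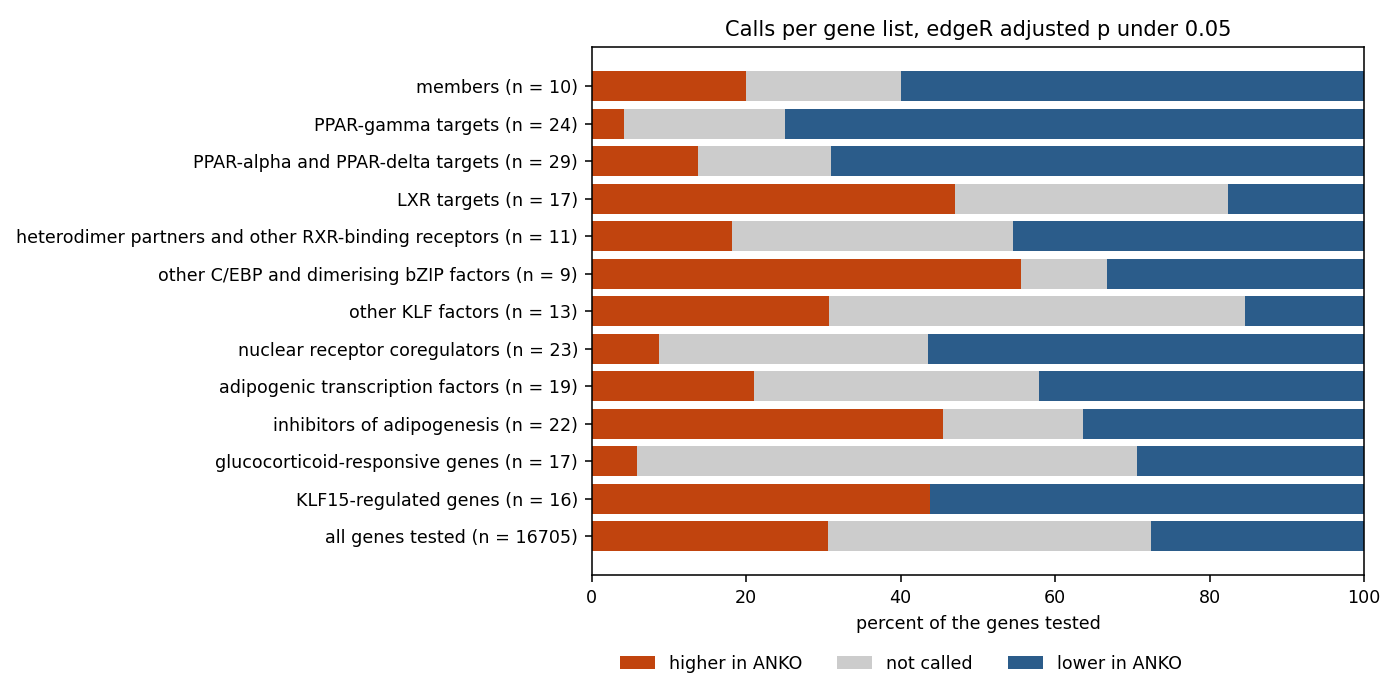
Percent of the tested genes of each list called higher in ANKO, not called, or called lower in ANKO (edgeR adjusted p under 0.05), with the number tested, for the 10 factors, 11 lists of related genes and all 16705 genes tested. PPARγ targets show 18 of 24 lower, LXR targets 8 of 17 higher, and all genes 30.6% higher and 27.6% lower.

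Other receptors that pair with RXR were mixed, with 5 of 11 lower and 2 higher, where 27.6% of all genes fell and 30.6% rose. Their median log2 fold change was -0.73. The thyroid hormone receptors Thra (log2 fold change -0.81 ± 0.13, edgeR adjusted p = 0.000514) and Thrb (-0.99 ± 0.13, edgeR adjusted p = 0.000114) fell with Rxrb and Nr1h2, and the retinoic acid receptor Rarb, named after its values were seen, was the other gene that fell (-0.75 ± 0.23). Its relatives Rara (1.12 ± 0.16, edgeR adjusted p = 0.000208) and Rarg (0.70 ± 0.20, edgeR adjusted p = 0.0119) rose, Rarg losing its call without WT3 and WT4 (0.40) and with the muscle covariate (0.13). Nuclear receptor coregulators were lower in 13 of 23 cases and higher in 2, beside the same 27.6% and 30.6% of all genes, with a median of -0.38. The coactivator Ppargc1b fell to 52.4 ± 11.3 CPM in ANKO, against 168 ± 13.8 CPM in WT (log2 fold change -1.68 ± 0.15, edgeR adjusted p = 8.94e-06). The brown fat coregulator Prdm16 (-1.20 ± 0.14) and the NAD+-dependent deacetylase Sirt1 (-0.66 ± 0.08) fell, and Cited2, a CBP/p300-binding coregulator, rose (1.68 ± 0.15, edgeR adjusted p = 8.22e-06). The number of coregulators that rose was 1 without WT2, WT4 or ANKO3 and without either pair of WT libraries. With library totals alone as the scaling 7 coregulators were lower and 4 higher, and with the muscle covariate 4 were lower and 1 higher.

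The remaining bZIP factors that dimerise with C/EBPs rose in 5 of 9 cases and fell in 3, where 30.6% of all genes rose and 27.6% fell. Their median log2 fold change was 0.52. Ddit3, the stress factor CHOP that blocks C/EBP binding, had 34.6 ± 4.11 CPM in ANKO and 24.2 ± 2.31 CPM in WT (log2 fold change 0.52 ± 0.11, edgeR adjusted p = 0.00267), and Atf4, its usual activator, had 139 ± 7.27 CPM in ANKO and 212 ± 52.2 CPM in WT (-0.61 ± 0.16, edgeR adjusted p = 0.00866). The immune factor Batf2 (2.36 ± 0.33) and the immediate-early gene Fos (2.57 ± 0.71) rose, as did Batf (3.65 ± 0.36) and Batf3 (2.41 ± 0.28), the last pair named after their values were seen. Nfil3 fell by 1.91 beside Cebpg and Atf4. With the muscle covariate 3 were called higher and the 3 decreases lost their calls, as did the increases of Fos (1.07 ± 1.16) and Batf2 (1.405 ± 0.49). Other Krüppel-like factors went both ways, with 4 of 13 higher, close to the 30.6% of all genes that rose. The list had 2 lower, where 27.6% of all genes fell, and its median was 0.04. Klf9, which promotes adipogenesis, had 152 ± 20.8 CPM in ANKO and 307 ± 120 CPM in WT (-1.01 ± 0.25, edgeR adjusted p = 0.00573), and Klf4 fell by 0.58 on the log2 scale. Klf6 rose (0.42 ± 0.10), with Klf5, Klf8 and Klf12, low genes named after their values were seen (means of 1.94 to 2.19 CPM in ANKO and 0.358 to 1.26 CPM in WT). The number that rose was 2 without WT4, without ANKO1 and without WT3 and WT4, and with the muscle covariate all 6 calls of this list were lost.

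Other transcription factors of adipogenesis fell in 8 of 19 cases and rose in 4, where 27.6% of all genes fell and 30.6% rose. Their median log2 fold change was -0.38. Ebf1, an activator of Pparg and Cebpa, fell to 149 ± 8.05 CPM in ANKO, against 357 ± 75.0 CPM in WT (log2 fold change -1.26 ± 0.15, edgeR adjusted p = 7.60e-05). The brown fat factor Nfia (-0.85 ± 0.10) and the repressor Bcl6 (-1.13 ± 0.18) fell. Those that rose were E2f1, also a cell cycle factor (2.40 ± 0.21), Rora (0.69 ± 0.09), Tfap2b (3.58 ± 0.76) and Egr2, named after its values were seen (2.62 ± 0.68), of which E2f1 and Tfap2b were below 1 CPM in WT. Genes known to inhibit adipogenesis rose in 10 of 22 cases and fell in 8, beside 30.6% and 27.6% of all genes, with a median of 0.27. Gata3, which holds preadipocytes undifferentiated and is also a T cell factor, averaged 15.3 ± 6.14 CPM in ANKO, against 1.04 ± 0.497 CPM in WT (log2 fold change 3.86 ± 0.38, edgeR adjusted p = 2.35e-05). Runx1t1 (1.598 ± 0.20) and the progenitor factor Zfp521 (1.57 ± 0.16) rose as well. Foxo1, which represses Pparg, fell by 1.94, Trib1, which promotes breakdown of C/EBPα, fell by 1.54 and Irf3 fell by 0.54 on the log2 scale. Fibroblast, progenitor and lymphocyte markers, given above, were higher in all ANKO libraries. With library totals alone as the scaling, 5 genes of each of the lists fell. With the muscle covariate 6 adipogenic factors were lower and 2 higher, and 4 inhibitors were higher and 3 lower. Tfap2b (3.24 ± 1.48) and Foxo1 (-1.19 ± 0.55) lost their calls with that covariate.

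Genes responsive to glucocorticoids, which induce Klf15 and Cebpd, mostly did not pass the test. In this list 5 of 17 fell, close to the 27.6% over all genes, and 1 rose, against 30.6% over all genes. The other 11 did not pass the test, and the median log2 fold change was -0.45. The metallothioneins Mt1 (-1.83 ± 0.22, edgeR adjusted p = 7.48e-05) and Mt2 (-1.67 ± 0.39) and the cell cycle inhibitor Cdkn1a (-1.78 ± 0.48) fell. Lcn2, which inflammation also induces, rose (3.26 ± 0.41, edgeR adjusted p = 0.000116). The number that fell was 3 without WT4 and with library totals alone. Without WT3 and WT4 4 fell and 3 rose, without WT1 and WT2 8 fell and 2 rose, and with the muscle covariate 1 fell and 1 rose. Mt2 (-0.90 ± 0.57) and Cdkn1a (-0.17 ± 0.56) lost their calls with that covariate. Genes listed as regulated by KLF15 are chiefly of amino acid handling in liver and muscle. All 16 tested passed the test, 9 lower and 7 higher, where 58.2% of all genes passed, 27.6% lower and 30.6% higher. Their median was -0.73. Bcat2, which starts branched-chain amino acid breakdown, fell to 36.2 ± 3.24 CPM in ANKO, against 153 ± 22.6 CPM in WT (log2 fold change -2.08 ± 0.12, edgeR adjusted p = 7.60e-07). The proline breakdown genes Prodh (-1.93 ± 0.15) and Aldh4a1 (-1.65 ± 0.16) fell. The transaminases Got1 (1.40 ± 0.17), Got2 (1.39 ± 0.12) and Gpt2 (1.11 ± 0.11) rose. The other 4 genes that rose, named after their values were seen, do not handle amino acids: the muscle kinase gene Alpk3 (3.57 ± 0.63), the muscle ubiquitin ligase genes Fbxo32 (1.46 ± 0.25) and Trim63 (3.92 ± 0.96), and the transcription factor gene Twist2 (0.84 ± 0.27). Skeletal muscle markers, given above, were higher in all ANKO libraries. With the muscle covariate 4 of the list were lower and 5 higher.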

How the data were processed

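Per the labels' protocols, brown fat was flash frozen, total RNA was extracted and rRNA was removed with Ribo-Zero Gold reagents. STAR 2.0.4b, featureCounts 1.45 of the Subread package and the build GRCm38 are named in the submitters' processing notes. The sources used here give no annotation release, strand setting or handling of multi-mapping reads. The authors deposited 1 table per library with a whole-number read count per gene. The authors also deposited a CPM, which equals the count scaled to a table total of 1e+06 within 1e-09. The deposited RPKM equals that CPM per kilobase of gene length, with the same tolerance. Tests used the counts alone, and printed CPM and RPKM were recomputed from them with TMM-scaled library sizes.

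Symbols came from GENCODE M21, which matched 40340 of 41388 IDs, and 355 rRNA rows (0.801% to 1.13% of counts in ANKO, 2.83% to 3.53% in WT) were left out. Libraries were grouped by title and genotype label. The replicates are separate mice per the series design, and chi-square divided by its degrees of freedom was at least 7.16 for any pair of libraries, so none was counted as a repeat. edgeR 4.0.16 in R 4.3.3 was used with filterByExpr by group, TMM, robust quasi-likelihood fits and Benjamini-Hochberg adjustment over the 16705 genes tested. An adjusted p under 0.05 was called. Standard errors were derived from the F statistic, and the biological coefficient of variation was 20.6%. Shares of family RPKM and levels against 18 adipocyte markers (log2 CPM, prior count 2) were tested with exact two-sided permutation tests over libraries in SciPy 1.17.1. Nearest profiles were ranked by root-mean-square difference in log2 CPM, 2 genes per called factor. Motif letters were searched on both strands of the 250 bases before RefSeq starts (GRCm38.p6). From each list the text names up to 3 called genes per direction with the smallest p and a mean of at least 2 CPM, besides genes said to be named after their values were seen. The 10 factors and all lists were chosen with earlier results of these data known.

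Alternatives were DESeq2 1.42.0 and its size factors, upper-quartile factors, library totals alone, other filters, limma-voom (limma 3.58.1), protein-coding nuclear genes alone, thinning to the lowest total, a replicate block, omission of each library in turn, pairs of WT libraries left out, a muscle marker covariate, and a threshold of 0.01. Limits set by 3 counts cover counting error only, since PCR copies are not independent molecules. Figures were drawn with matplotlib 3.10.9. Some genes counted in the lists are not reported here by name.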

Additional observations from a re-analysis of the deposited data

Results flagged for a closer look

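In 2 of 42 groups of 4 libraries examined, 1 library stood far from the other 3, where chance alone flags about 1 group in 20. Pparg was 155 CPM in ANKO4, the lowest of the ANKO libraries by a gap of 0.84 of their range. ANKO4 is also the shallowest library, with 5738067 counts, and has the lowest summed adipocyte markers (16362 CPM) and the highest summed fibroblast and progenitor markers (8179 CPM) of the ANKO group. The log2 fold change of Pparg was between -1.14 and -0.96 when single libraries were left out, and relative to the adipocyte markers ANKO4 was at -1.70, beside -1.67, -1.60 and -1.65 in ANKO1 to ANKO3. Rxra held 30.4% of the summed RXR level in WT1, the highest of the WT libraries by a gap of 0.85 of their range, against 28.3% to 28.6% in the other WT libraries and 48.6% to 54.3% in ANKO.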

How the results depend on the processing

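The decreases of Pparg, Ppara and Rxrg kept their direction and call under every alternative run, and those of Cebpb, Nr1h3 and Klf15 under all but the muscle covariate. That covariate was higher in every ANKO library (8.52 to 9.07, mean log2 CPM) than in any WT library (1.16 to 6.68), so it overlaps genotype, and it raised the median standard error over all genes to 0.293 from 0.177. With it 5 of the 10 factors were called, 1 of them higher, with 60 of 195 list genes (140 without it) and 3943 genes in all. It gave Cebpb -0.46, Cebpd 0.80, Nr1h3 -0.21 and Klf15 -0.79, none called, Cebpa -1.23, called, and Ppard 0.13. Of 57 named list genes, 17 lost their calls with the direction kept, against at most 4 under any other setting. Lpl, also among the 57, changed sign (0.030) and was not called either. The cause of these shifts was not tested.

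The number of factors that rose (2) was 1 with no filter on low counts and without WT1 and WT2, and 0 at a threshold of 0.01 (edgeR; 2 with DESeq2 at 0.05), and it ran from 0 to 2 when single libraries were left out. Rxra was 0.26 with no filter, 0.13 without WT1 and WT2, and 0.23 to 0.39 without single libraries. Cebpd ran from 0.57 to 0.87 without single libraries, losing its call without ANKO3. Cebpa was -0.86 without WT3 and WT4 (called), 0.025 without WT1 and WT2 (sign changed), and -0.64 to -0.23 without single libraries. The small difference of Ppard changed sign with upper-quartile factors (0.0073), library totals alone (0.11) and without WT3 and WT4 (0.050), and ran from -0.21 to 0.01 (0.0089 without ANKO2) without single libraries.

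Shares computed from counts differed by 17.8 points for Pparg, -21.0 for Ppara, 3.18 for Ppard, 22.6 for Rxra, -9.11 for Rxrb, -13.5 for Rxrg and 1.41 for Cebpd. Each had an adjusted exact permutation p of 0.0490, where the per-length values were 0.0571, or 0.214 for Rxrb. That adjusted p turns on how many shares sit at the smallest p that 4 against 4 allow (0.0286), and Rxrb joined them here. The step across 0.05 is thus no added evidence for the other shares. Against the median of the markers, the differences were -0.18 for Pparg, -1.38 for Ppara, 0.81 for Ppard, 1.61 for Cebpd, 1.22 for Rxra and -0.68 for Rxrg, each at an adjusted exact permutation p of 0.0476. Here Pparg joined the genes at the smallest p, while against the mean its adjusted exact permutation p was 0.254. As with the shares, the lower adjusted p of the other genes came from that tie. With a library left out, 3 against 4 cannot give an exact permutation p below 0.0571, so those values were compared by size. Among the lists, LXR targets had 5 lower with DESeq2 (3 with edgeR), PPARα and PPARδ targets 2 higher with limma-voom (4 with edgeR), and other KLF genes 2 higher after thinning (4 before).

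Library totals alone moved the median log2 fold change of all genes by 0.18 and gave 5897 higher and 2940 lower genes, where TMM gave 5111 and 4615. The replicate numbers share only a number: deviations of same-numbered libraries correlated at 0.16, -0.07, 0.02 and -0.07 across 5000 genes, and only ANKO1 correlated best with its own number. With the replicate block 8 of the 10 factors and 9239 genes were called, and Plin2 (0.68, edgeR adjusted p = 0.102) was not. Depth limits low genes most in ANKO4.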
